A study of Mus musculus with 6 samples.

Results

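Genes of the vessel lining were described across 6 whole tumours. The set was a list of 33 genes that mark endothelial cells, chosen by name and matched to the deposited count table through their Entrez numbers. Of these, 32 were found among the 15295 genes of the table, 31 of them markers of blood vessel or general endothelium and 1, Lyve1, a lymphatic marker. Prox1, the other lymphatic gene of the list, was not analysed here. All 32 passed the filter on low counts, which kept 14498 genes.

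The tumours were grown in mice from the NA13 line of mouse bladder cancer cells, which the submitters describe as high in DDR2. The strain is given as C57BL/6. In the 3 control tumours the cells carried a scrambled shRNA, and in the other 3 an shRNA against Ddr2, which encodes a collagen-binding receptor tyrosine kinase. All 6 tumours received IgG, and the age of the mice is not given in the sources used here. RNA was taken from homogenised tumour, so host vessels, stroma and cancer cells were measured together, and fewer cells of a type cannot be told apart from less RNA per cell. Separate animals are not stated for tumours of the same group. The p-values therefore reflect how far these samples spread, and part of that spread may be technical. The library totals ranged from 15560571 to 19522985 counts. Ddr2 itself was at 6.42, 16.7 and 20.5 CPM (a gene's counts relative to its library's TMM-adjusted total, on edgeR's usual CPM scale) in control 1 to 3 and at 4.84, 19.0 and 28.6 CPM in the tumours labelled shDdr2 1 to 3. On the first principal component of all genes (50.1% of the variance) the tumour labelled shDdr2 1 stood apart, at -85.2 with the other 5 between -16.3 and 45.7. Results without that tumour are given for the set and for some members, and values of other members also changed. On the second component (22.2%) control 1 stood apart, at -55.7 with the other 5 between -6.75 and 34.3. The groups overlapped in the targeted gene, and the directions below compare libraries by their labels alone.

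Endothelial cells form the inner layer of blood and lymphatic vessels. They hold to each other through VE-cadherin, claudin-5 and PECAM-1, and sense their surroundings through the angiopoietin receptor Tie2, VEGF receptors, Notch and sphingosine 1-phosphate receptors. A tumour draws its vessels from the host, and sprouting vessels are known for expressing the angiopoietin-2, Dll4 and apelin receptor genes. Lymphatic endothelium shares many of these genes and adds the hyaluronan receptor gene Lyve1 and the transcription factor gene Prox1.

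None of the 32 members separated the control tumours from those labelled shDdr2. No member was called by edgeR's quasi-likelihood test at an adjusted p under 0.05 (0 of 32, with every adjusted p at 1.00), where 0% of all 14498 genes were called. At an unadjusted p under 0.05 the count was also 0 of 32, against 1.44% of all genes (0.993% higher, 0.448% lower). In 0 of 32 members were the groups free of overlap, against 4.32% of all genes (2.21% higher, 2.11% lower). DESeq2 also called 0 of 32, where it called 0.262% of all genes. The fitted log2 fold change (shDdr2 minus control) was above 0 in 25 members and below 0 in 7, with a median of 0.16. Over all genes tested, 57.1% lay above 0 and the median was 0.04. The sign of the members' median depended on the libraries in the fit. It was 0.45 without the tumour labelled shDdr2 1, with 28 members above 0. It was -0.47 without that labelled shDdr2 3, with 5 above 0. With the replicate number as a block the median was -0.04, with 15 members above 0 and 17 below. In that fit 0 were called and 0 had an unadjusted p under 0.05, against 1.81% of all genes.

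These data were imprecise for this gene set. The distance from a member's log2 fold change to the end of its 95% interval was 1.2 log2 units in the median, and 0.72 to 1.84 over the members, against a median of 0.76 for all genes. For 4 of 32 members the interval lay wholly between -1 and 1, so for 28 a 2-fold difference in at least 1 direction was not excluded by it.

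**Figure D1:**
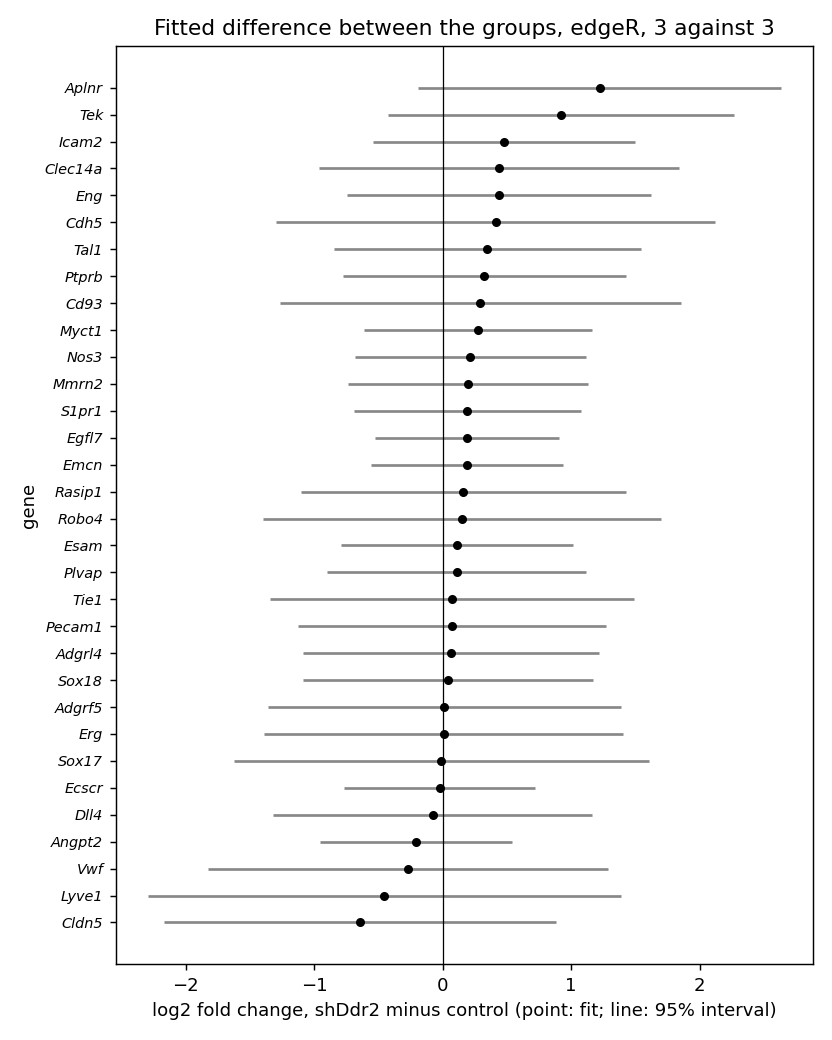
Fitted log2 fold change (x axis, shDdr2 minus control) of each of the 32 endothelial genes (y axis), with the 95% interval of the edgeR fit as a line. The estimates run from -0.64 for Cldn5 to 1.22 for Aplnr, and each line crosses 0.

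What the members showed was a shared order of the libraries. The tumour labelled shDdr2 3 had the highest level in 28 of 32 members (87.5%), against 20.3% of all genes tested. The tumour labelled shDdr2 1 had the lowest in 24 (75.0%), against 34.6% of all genes. In 23 members all 3 control levels lay between these libraries of the other group (71.9%, against 18.0% of all genes). The median member was 4.01-fold higher in the tumour labelled shDdr2 3 than in that labelled shDdr2 1, and in all genes the median ratio was 1.03. Control 1 came next from below, with 2 of 32 members above their own mean over libraries, and control 2, control 3 and shDdr2 2 stood near the middle, with 26, 23 and 18 above it. These are descriptions, since the 32 genes share the same 6 libraries.

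**Figure D2:**
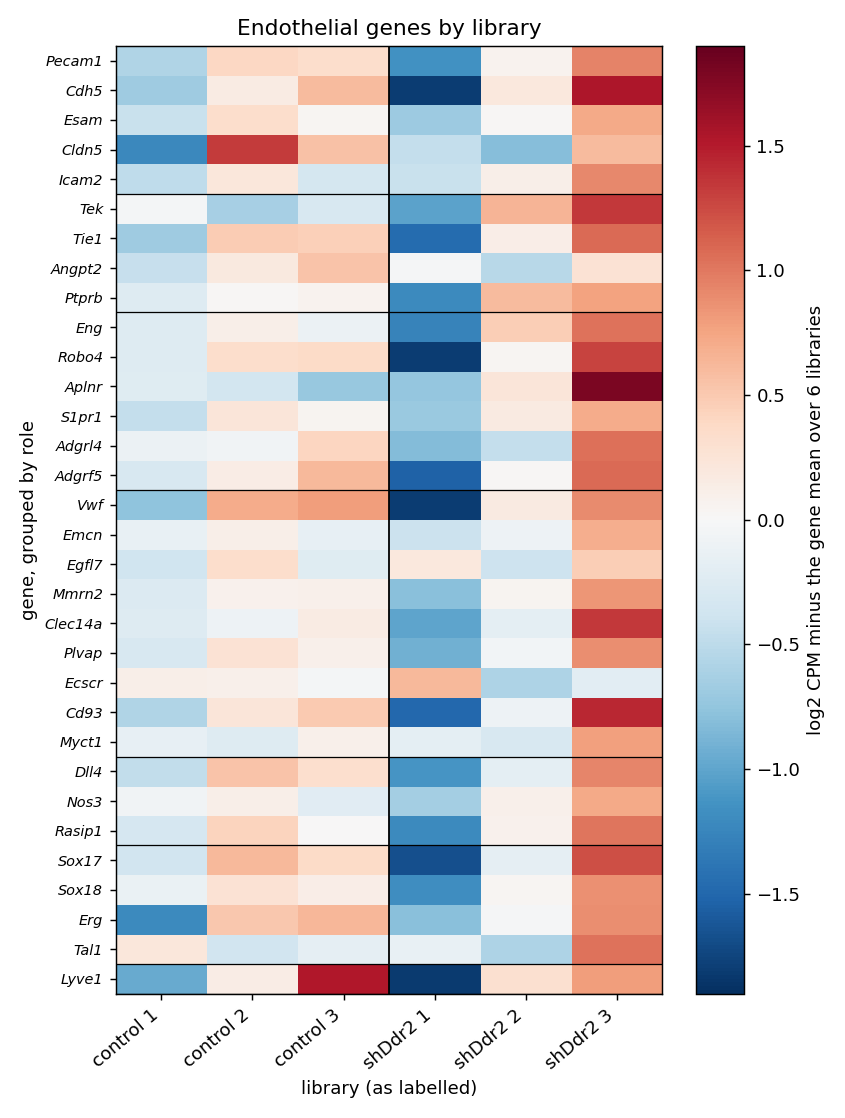
Deviation of each endothelial gene's log2 CPM from its own mean over 6 libraries (colour), by gene (rows, grouped by role as in the text) and library (columns). The column of shDdr2 1 is low and that of shDdr2 3 high in most rows, with Ecscr, Egfl7 and Angpt2 as exceptions.

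Of the junction genes, Pecam1, Cdh5 and Esam followed this order. Pecam1 (Entrez 18613, chromosome 11, 106654217 to 106750628, minus strand, GRCm38) encodes the adhesion molecule PECAM-1 of endothelial contacts. It was at 42.3, 82.6 and 79.5 CPM in control 1 to 3 and at 28.2, 66.1 and 120.4 CPM in shDdr2 1 to 3. The shDdr2 values spanned the whole control range, and the log2 fold change was 0.07 (SE 0.51, edgeR unadjusted p = 0.891). Cdh5 (Entrez 12562, chromosome 8, 104101625 to 104144511, plus strand) encodes VE-cadherin, the cadherin of endothelial adherens junctions. It was at 18.1, 32.1 and 43.7 CPM in the controls and at 8.30, 33.2 and 83.5 CPM in the tumours labelled shDdr2. Its 10.1-fold range was among the widest of the members, and the groups overlapped, with a log2 fold change of 0.41 (SE 0.73). Esam, another adhesion molecule of endothelial tight junctions, was at 23.7 ± 5.97 and 25.6 ± 12.2 CPM in control and shDdr2 tumours (SD, n = 3 each). Icam2, a ligand of leukocyte integrins, had the third smallest unadjusted p on the higher side. It was at 3.18, 5.20 and 3.52 CPM in the controls and at 3.32, 4.82 and 8.38 CPM in shDdr2 1 to 3 (log2 fold change 0.48, SE 0.43). Its higher mean in the shDdr2 group came with 1 library above the controls and 2 within their range.

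Cldn5 departed from the order. Cldn5 (Entrez 12741, chromosome 16, 18776847 to 18778262, plus strand) encodes claudin-5, the sealing claudin of endothelial tight junctions. It was at 3.34, 19.5 and 11.5 CPM in control 1 to 3 and at 5.70, 4.43 and 11.8 CPM in shDdr2 1 to 3. Control 2 was highest and control 1 lowest, so the extremes were both controls. Its log2 fold change of -0.64 (SE 0.65, 95% interval -2.17 to 0.88) was the most negative of the set, and moved to -0.02 without control 2 and -1.18 without shDdr2 3.

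The angiopoietin pathway controls vessel stability through the receptor kinase Tie2, encoded by Tek. Tek (Entrez 21687, chromosome 4, 94739289 to 94874976, plus strand) was at 3.72, 2.45 and 3.08 CPM in the controls (69, 41 and 49 counts). It was at 1.88, 5.94 and 9.70 CPM in the tumours labelled shDdr2, from 26, 122 and 169 counts. Of the latter, 2 stood above every control and 1 below every control, and the log2 fold change was 0.92 (SE 0.57, 95% interval -0.42 to 2.27, unadjusted p = 0.151). It was 0.35 without shDdr2 3 and 1.34 without shDdr2 1. Tie1, the related receptor that modulates Tie2, was at 13.1, 29.2 and 28.7 CPM in the controls and at 7.58, 22.8 and 44.1 CPM in the shDdr2 tumours, with a log2 fold change of 0.07 (SE 0.60). The phosphatase gene Ptprb, whose product VE-PTP acts on Tie2 and VE-cadherin, was at 17.4 ± 1.98 and 21.8 ± 12.2 CPM (SD, n = 3).

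Angpt2, the ligand of this pathway within the set, showed another pattern from its receptor. Angpt2 (Entrez 11601, chromosome 8, 18690263 to 18741562, minus strand) encodes angiopoietin-2, which is stored and released by activated endothelium. It was at 28.2, 43.4 and 55.9 CPM in control 1 to 3 and at 37.6, 26.6 and 46.3 CPM in shDdr2 1 to 3. The tumour labelled shDdr2 1, lowest for Tek and Tie1, was intermediate for Angpt2. The fold range of Angpt2 over libraries was the narrowest of the members after that of Egfl7. The log2 fold change was -0.21 (SE 0.32). The competing ligand gene Angpt1, which is not an endothelial gene, was at 35.2, 13.8 and 18.5 CPM in the controls and at 6.14, 17.7 and 28.8 CPM in the shDdr2 tumours.

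**Figure D3:**
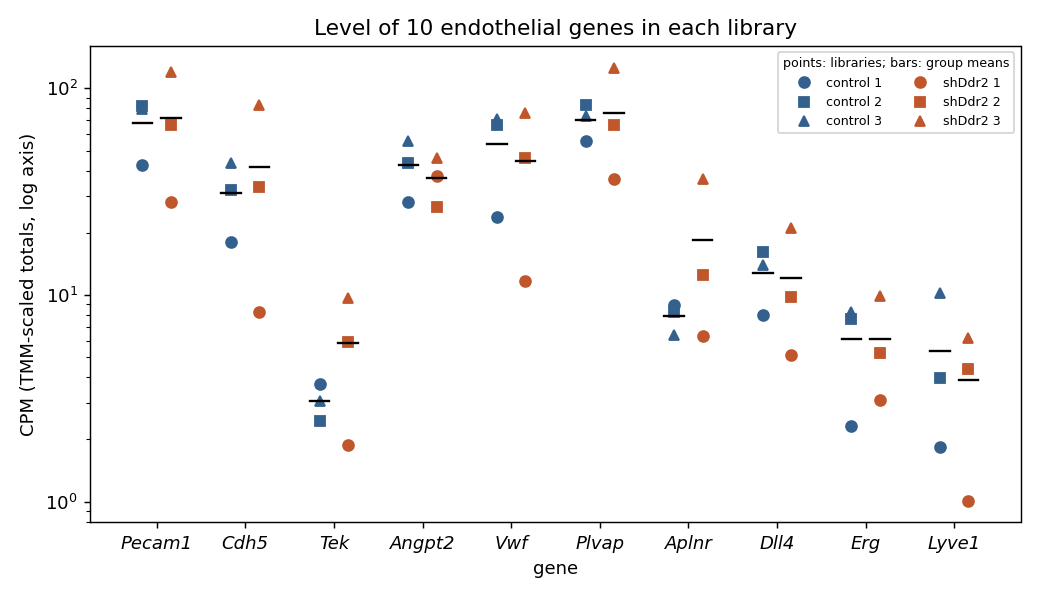
Level of 10 endothelial genes (x axis) in CPM on a log axis (y axis) in each library, with controls in blue, tumours labelled shDdr2 in orange, the replicate number as marker shape and group means as bars. The orange points are spread more widely than the blue for most genes, and the groups overlap in each.

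All 6 members that encode other receptors had a log2 fold change above 0, from 0.01 for Adgrf5 to 1.22 for Aplnr, and 0 passed the test. Without shDdr2 3, Aplnr stayed above 0 and the other 5 were below it, from -0.77 for Robo4 to -0.07 for Eng. With the replicate block Robo4, Adgrl4 and Adgrf5 were below 0, at -0.27, -0.15 and -0.28. Aplnr (Entrez 23796, chromosome 2, 85136225 to 85139923, plus strand) encodes the apelin receptor, a G protein-coupled receptor of growing vessels. It was at 8.95, 8.30 and 6.41 CPM in control 1 to 3 and at 6.35, 12.4 and 36.5 CPM in shDdr2 1 to 3. The shDdr2 2 and 3 values exceeded every control while shDdr2 1 was marginally below the lowest. The log2 fold change of 1.22 (SE 0.60, 95% interval -0.19 to 2.63) had the smallest unadjusted edgeR p of the members, 0.0800, with an adjusted p of 1.00. DESeq2 gave an unadjusted p of 0.0418 and an adjusted p of 1.00. The value rested largely on shDdr2 3, without which it was 0.25. The ligand gene Apln was at 10.6, 15.3 and 38.3 CPM in the controls and at 5.92, 13.3 and 58.2 CPM in the shDdr2 tumours, which overlapped.

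Eng, the TGF-beta family co-receptor endoglin, was at 32.4, 41.4 and 35.3 CPM in the controls and at 15.96, 53.2 and 78.6 CPM in the shDdr2 tumours. As with Tek, the 3 controls were close together while the shDdr2 values lay on both sides of them. Robo4, a roundabout receptor of endothelium, had an 8.50-fold range, from 3.47 CPM in shDdr2 1 to 29.4 CPM in shDdr2 3. S1pr1, the sphingosine 1-phosphate receptor that supports vessel integrity, was at 22.4 ± 5.21 and 25.5 ± 11.6 CPM (SD, n = 3). S1pr1 is also expressed by lymphocytes, whose 4 measured T cell markers summed to 1.89, 16.4 and 4.97 CPM in the controls and to 4.405, 12.1 and 3.62 CPM in the shDdr2 tumours. S1pr1 ranged from 13.9 CPM in shDdr2 1 to 37.1 CPM in shDdr2 3, and the part of T cells in it was not tested. The adhesion G protein-coupled receptor genes Adgrl4 and Adgrf5 also had near-equal means in control and shDdr2 tumours, of 18.0 ± 3.79 and 18.8 ± 13.8 CPM for Adgrl4 and of 32.7 ± 10.3 and 33.0 ± 25.4 CPM for Adgrf5.

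When the tumour labelled shDdr2 1 was left out, 5 of 32 members (15.6%) had an unadjusted p under 0.05. The share of all genes below that p was then 6.95%. On the higher side these were Tek, Ptprb, Eng and Aplnr, with log2 fold changes of 1.34, 0.72, 0.86 and 1.63, and on the lower side Ecscr with -0.43. None passed adjustment (lowest edgeR adjusted p of a member 0.658). The tumour left out held the lowest value of Tek, Ptprb, Eng and Aplnr and the highest of Ecscr. Its removal by itself moves their fold changes in these directions. With control 1 left out as well, the first 4 had log2 fold changes of 1.49, 0.62, 0.77 and 1.72 at unadjusted p from 0.00776 to 0.0282, where 7.08% of all genes were below 0.05, and the lowest adjusted p was 0.679. The other member signs were mixed over the alternatives, and 5 members kept their sign in every alternative run (Icam2, Tek, Ptprb and Aplnr above 0, Cldn5 below).

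Vwf (Entrez 22371, chromosome 6, 125546774 to 125686679, plus strand) encodes von Willebrand factor, the clotting glycoprotein stored with angiopoietin-2. It was at 23.9, 66.4 and 71.0 CPM in the controls and at 11.6, 45.9 and 76.3 CPM in the shDdr2 tumours. Both number 1 tumours were low. The log2 fold change was -0.27 (SE 0.66), and 0.18 without shDdr2 1. Megakaryocytes and platelets also carry Vwf. Their 4 measured markers (Pf4, Ppbp, Itga2b and Gp1bb) summed to between 34.7 and 44.1 CPM in the controls and between 24.0 and 49.97 CPM in the shDdr2 tumours. Their highest libraries differed, with Pf4 and Itga2b in shDdr2 1, Ppbp in control 1 and Gp1bb in shDdr2 3, and the part of platelets in the Vwf values was not tested.

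Plvap (Entrez 84094, chromosome 8, 71497765 to 71511752, minus strand) encodes the protein of the diaphragms of fenestrated endothelium. It was at 55.7, 82.7 and 73.6 CPM in the controls and at 36.5, 66.3 and 126.1 CPM in the shDdr2 tumours, and the shDdr2 values enclosed the controls (log2 fold change 0.11, SE 0.43). Per kilobase of merged exons Plvap was the most abundant member, at 37.0 CPM per kb as the mean of 6 libraries. Ecscr followed at 23.4, then Pecam1 at 11.2, Angpt2 at 10.7 and Eng at 10.6 CPM per kb. The lowest were Tal1 at 0.433, Sox17 at 0.574 and Clec14a at 0.826 CPM per kb. Pecam1 ranged over libraries from 4.53 to 19.3 CPM per kb, so its level and those of Angpt2 and Eng do not differ beyond their spread. In shDdr2 1 alone Ecscr stood above Plvap on merged exons, at 34.8 and 18.4 CPM per kb. Taking the longest transcript of the basic annotation as the length left Plvap, Ecscr and Pecam1 as the first 3. Plvap and Ecscr were then nearly equal, at 37.0 and 36.9 CPM per kb. Egfl7 moved from rank 10 to rank 4, Angpt2 from rank 4 to rank 7 and Eng from rank 5 to rank 6. At the low end Tal1 stayed last, and Clec14a at 0.826 then stood below Sox17 at 0.844 CPM per kb.

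Among the other surface and secreted glycoproteins, Cd93, a lectin-like receptor of sprouting endothelium, had the widest differences. It was at 27.5, 47.8 and 57.6 CPM in the controls and at 14.5, 38.2 and 110.1 CPM in the shDdr2 tumours. Mmrn2, the matrix protein multimerin-2 that binds CD93, was at 21.5 ± 2.84 and 24.6 ± 13.3 CPM, and Clec14a, a related lectin that also binds it, at 3.21 ± 0.460 and 4.34 ± 3.60 CPM (SD, n = 3). Emcn, the sialomucin endomucin, was at 17.5 ± 1.91 and 19.9 ± 8.18 CPM, and Myct1 at 5.69 ± 0.700 and 6.88 ± 3.04 CPM. For these 5 genes the shDdr2 group had the larger SD, as in 29 of 32 members on the log2 scale (90.6%, against 71.7% of all genes).

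Ecscr and Egfl7 did not follow the others. Ecscr (Entrez 68545), which encodes a cell-surface regulator of endothelial migration, was at 42.8, 42.7 and 38.6 CPM in control 1 to 3 and at 61.0, 26.6 and 34.7 CPM in shDdr2 1 to 3. It was the only member highest in shDdr2 1, and one of 5 lowest in shDdr2 2. Egfl7, a secreted protein that guides vessel tube formation, was at 19.8, 32.6 and 22.1 CPM in the controls and at 29.6, 19.6 and 35.9 CPM in the shDdr2 tumours, a 1.83-fold range that was the narrowest of the 32. Both genes share exon sequence with genes on the opposite strand, Ecscr with 1700066B19Rik and Egfl7 with Agpat2 and Mir126b, and Egfl7 also with Gm20532 and Mir126a on its own strand. The strand setting of the counting is not given in the sources used here, so reads within the shared stretches may have gone to either gene. The longest shared stretch was 62 bases for Ecscr and 125 for Egfl7, of merged exon lengths of 1752 and 3581 bases. In all, 7 of the 32 members share exon sequence with another gene, the others being Eng, Dll4, Nos3, Rasip1 and Sox17, with up to 804 bases (Sox17).

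Dll4 (Entrez 54485, chromosome 2, 119325784 to 119335962, plus strand) encodes the Notch ligand of arterial and tip cells. It was at 8.04, 16.2 and 14.0 CPM in the controls and at 5.13, 9.79 and 21.2 CPM in the shDdr2 tumours. The log2 fold change was -0.08 (SE 0.53), and 0.28 without shDdr2 1. The endothelial nitric oxide synthase gene Nos3 was at 7.63 ± 0.880 and 8.85 ± 4.002 CPM, and Rasip1, an effector of vessel lumen formation, at 7.32 ± 1.87 and 8.17 ± 5.59 CPM (SD, n = 3). Both had their lowest value in shDdr2 1 and their highest in shDdr2 3.

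Of the transcription factor genes, Tal1 and Sox17 were the least abundant members per merged exon length, while Sox18 was at 7.54 CPM per kb. Erg (Entrez 13876, chromosome 16, 95359169 to 95586593, minus strand), an ETS factor that maintains endothelial identity, was at 2.32, 7.65 and 8.30 CPM in the controls and at 3.10, 5.26 and 9.93 CPM in the shDdr2 tumours. Its lowest value was in control 1, and the log2 fold change was 0.01 (SE 0.60). Sox17 (Entrez 20671, chromosome 1, 4490931 to 4497354, minus strand), an arterial factor, was at 1.78, 3.52 and 2.95 CPM in the controls and at 0.722, 2.05 and 5.40 CPM in the shDdr2 tumours. The shDdr2 1 value came from 10 counts, with an exact 95% Poisson interval of 0.346 to 1.33 CPM, and that of shDdr2 3 from 94 counts, with 4.36 to 6.60 CPM. These intervals, which cover counting error only, do not meet. Sox18 was at 12.0 ± 1.64 and 12.4 ± 7.81 CPM (SD, n = 3).

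Tal1 (Entrez 21349, chromosome 4, 115056426 to 115071755, plus strand) is shared by endothelial and blood-forming lineages. It was at 2.05, 1.37 and 1.57 CPM in the controls and at 1.59, 1.17 and 3.62 CPM in the shDdr2 tumours, from 22 to 63 counts. The 4 measured erythroid genes (Alas2, Hba-a1, Hba-a2 and Hbb-bs) summed to 596 CPM in control 1, and to between 25.1 and 62.6 CPM in the other 5 libraries. Tal1 was highest in shDdr2 3, where that sum was 46.6 CPM, and next highest in control 1. The part of blood-lineage cells in the Tal1 values was not tested.

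Lyve1 was compared with the blood vessel members as the lymphatic gene of the set. Lyve1 (Entrez 114332, chromosome 7, 110850607 to 110863239, minus strand) was at 1.83, 3.94 and 10.2 CPM in control 1 to 3 (34, 66 and 163 counts). It was at 1.01, 4.38 and 6.20 CPM in shDdr2 1 to 3, from 14, 90 and 108 counts. It shared the low values of both number 1 tumours but was highest in control 3, unlike 28 of the 31 blood vessel members, which were highest in shDdr2 3. The log2 fold change was 0.43 without control 3 and -0.01 without shDdr2 1. With all libraries it was -0.46 (SE 0.79, 95% interval -2.30 to 1.38), against a median of 0.16 in the blood vessel members. The interval of Lyve1 holds that median, but Lyve1 is 1 gene measured in the same libraries as the others. A difference between lymphatic and blood vessel members was not tested. Relative to the mean log2 CPM of Pecam1, Cdh5 and Tie1 in the same library, Lyve1 was at -3.56, -3.43 and -2.18 in the controls and at -3.58, -3.07 and -3.62 in the shDdr2 tumours. Control 3 thus stood above the other 5 libraries, which lay between -3.62 and -3.07.

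Other genes of lymphatic endothelium were read from a list of their own. Of 8 listed, 5 were measured (Pdpn, Flt4, Nrp2, Itga9 and Foxc2), and Ccl21a, Mmrn1 and Reln were not analysed here. Of the 5, 4 had a log2 fold change above 0, with a median of 0.23, and 0 passed the test. Flt4, the receptor of VEGF-C, was at 5.39, 6.15 and 6.91 CPM in the controls and at 1.16, 7.02 and 13.4 CPM in the shDdr2 tumours. Like most blood vessel members, it was lowest in shDdr2 1 and highest in shDdr2 3, and so was Itga9 (4.98 and 24.2 CPM). Nrp2 was lowest in shDdr2 1 (50.3 CPM) but, as Lyve1 was, highest in control 3 (171.8 CPM), with a log2 fold change of -0.31. Foxc2 was highest in shDdr2 2, at 1.46 CPM from 30 counts. Pdpn, the podoplanin gene, which epithelial and fibroblast cells also express, was highest in shDdr2 1 at 100.4 CPM and lay between 46.8 and 66.1 CPM in the other 5. Lyve1 is likewise carried by some tissue macrophages. Their genes Mrc1, Cd163 and Folr2 were low in control 1 (24.6, 1.94 and 3.56 CPM) and in shDdr2 1 (35.9, 1.37 and 4.77 CPM), and at 74.1 to 125.9, 10.5 to 21.1 and 7.99 to 14.5 CPM in the other 4. The part of macrophages in the Lyve1 values was not tested.

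Members were also described relative to an endothelial core of Pecam1, Cdh5 and Tie1, which themselves followed the shared order. Subtracting it tends to narrow genes with that order and widen those without it. The ranges below are therefore descriptions and do not test a signal specific to vessels, and they were not computed over all genes. The mean log2 CPM of Pecam1, Cdh5 and Tie1 was 4.43, 5.41 and 5.53 in control 1 to 3 and 3.60, 5.20 and 6.25 in shDdr2 1 to 3. After subtracting it, the range over libraries became narrower in 21 of the 29 other members, and the median range went from 2.04 to 1.23 log2 units. Cd93, Adgrf5, Sox17, Dll4 and Vwf stayed within 0.70 log2 units of range or less (0.48, 0.54, 0.58, 0.67 and 0.70), from 2.92, 2.61, 2.90, 2.05 and 2.71 before. The range widened in the other 8, most in Ecscr, Egfl7 and Angpt2, to 3.47, 2.38 and 2.36 log2 units. In these 3 the highest relative value was that of shDdr2 1, at 2.33, 1.29 and 1.63. Aplnr stood at -1.27, -2.36 and -2.85 in the controls and at -0.93, -1.57 and -1.06 in the shDdr2 tumours on this scale, so control 1 fell among the shDdr2 values and the groups overlapped, as they did in all 32 members.

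**Figure D4:**
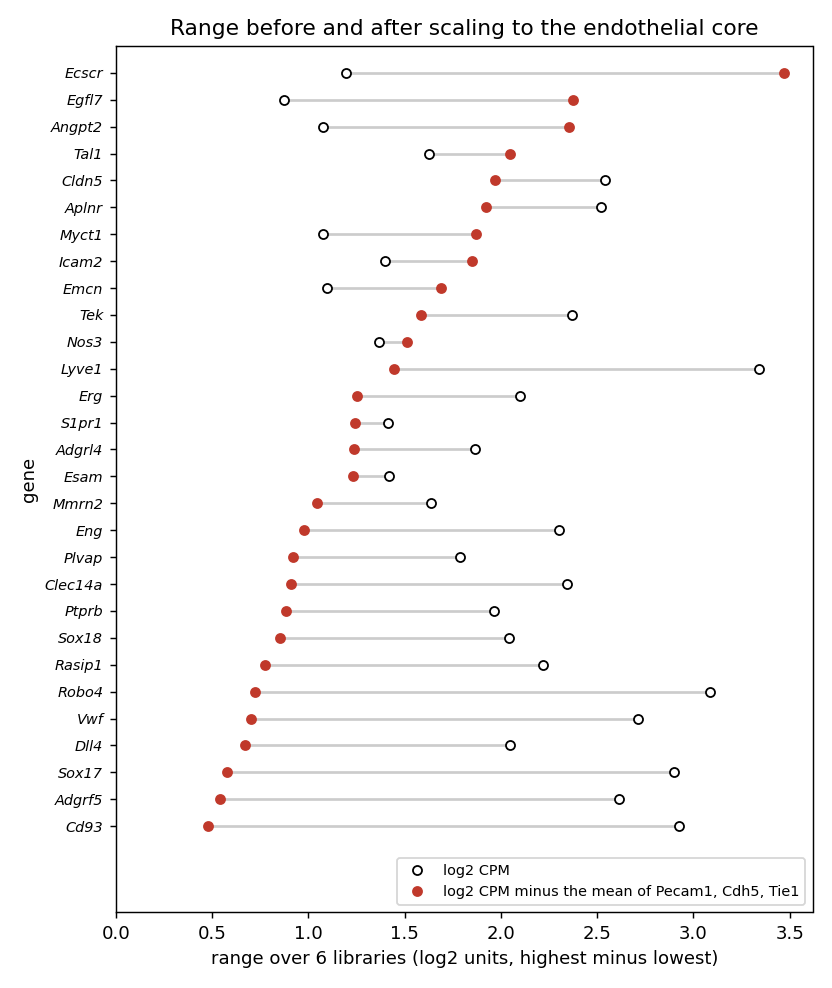
Range over 6 libraries (x axis, log2 units) of 29 endothelial genes (y axis) as log2 CPM (open points) and after subtracting the mean of Pecam1, Cdh5 and Tie1 in the same library (filled points). The filled point lies to the left for 21 genes, and far to the right for Ecscr, Egfl7 and Angpt2.

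Promoter sequences are shown for 2 genes that followed the shared order, Tie1 and Robo4, and for 2 that did not, Egfl7 and Cldn5. They are the 250 bases before a RefSeq start site (GRCm38.p6), 5′ to 3′ on the gene's strand, with AGGAAG, the core of many ETS factor sites, and its reverse complement CTTCCT in capitals. The windows are chr4:118489850-118490099 (minus) for Tie1, chr9:37401722-37401971 (plus) for Robo4, chr2:26583615-26583864 (plus), the second of 3 listed starts, for Egfl7, and chr16:18776597-18776846 (plus) for Cldn5.
Tie1: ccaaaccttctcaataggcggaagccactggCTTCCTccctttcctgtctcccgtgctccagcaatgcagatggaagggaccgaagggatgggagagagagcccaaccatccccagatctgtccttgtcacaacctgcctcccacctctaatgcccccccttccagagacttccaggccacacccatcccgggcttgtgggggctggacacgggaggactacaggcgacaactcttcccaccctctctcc
Robo4: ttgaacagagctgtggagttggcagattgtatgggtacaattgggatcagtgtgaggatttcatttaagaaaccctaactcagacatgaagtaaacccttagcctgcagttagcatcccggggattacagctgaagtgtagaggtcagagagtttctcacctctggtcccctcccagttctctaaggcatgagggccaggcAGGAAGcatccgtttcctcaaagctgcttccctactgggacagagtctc
Egfl7: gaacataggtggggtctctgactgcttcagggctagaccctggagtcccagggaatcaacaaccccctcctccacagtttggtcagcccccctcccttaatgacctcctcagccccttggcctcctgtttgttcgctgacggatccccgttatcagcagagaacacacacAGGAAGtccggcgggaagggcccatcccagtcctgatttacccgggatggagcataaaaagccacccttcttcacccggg
Cldn5: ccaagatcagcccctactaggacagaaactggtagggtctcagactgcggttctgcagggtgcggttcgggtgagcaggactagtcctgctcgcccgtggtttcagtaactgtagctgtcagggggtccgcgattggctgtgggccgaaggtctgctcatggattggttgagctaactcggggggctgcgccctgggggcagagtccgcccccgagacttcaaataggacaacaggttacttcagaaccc
The core was found in the Tie1, Robo4 and Egfl7 windows and in those of Adgrf5, Adgrl4, Emcn, Eng, Erg and Rasip1, and thus in members that shared the order and in members that did not. RefSeq windows were matched for 15 of the 32 members (21 windows). On either strand AGGAAG was in 10 of 21 windows (47.6%), against 29.5% of 32851 promoter windows of the same length. The longer ETS sequence ACAGGAAGT, which holds the core, was in 1 window, that of Egfl7 shown, against 0.794% of all. The SOX core ATTGTT was in 3 windows (14.3%, against 9.42%), ACAATG in 1 (4.76%, against 10.7%), the GATA core AGATAA in 3 (14.3%, against 9.99%), and the E-box CAGCTG in 2 (9.52%, against 13%), each on either strand. These are matches of letters, with no binding measured.

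Partner genes of the members lay about equally on both sides of 0. Of 27 measured genes of the Tie, apelin, Notch, BMP, sphingosine 1-phosphate, nitric oxide and Robo pathways and of endothelial transcription factors, 14 had a log2 fold change above 0 and 13 below, with a median of 0.00. None passed the edgeR test adjusted over all genes (0 of 27 also at an unadjusted p under 0.05, against 1.44% of all genes). The smallest unadjusted p was that of Svep1, a ligand of Tie1, at 6.202, 10.3 and 11.5 CPM in the controls and 5.99, 20.8 and 33.5 CPM in the shDdr2 tumours (log2 fold change 1.11, edgeR unadjusted p = 0.0969). Slit2, a secreted ligand of Robo receptors, had -0.32, and the sphingosine kinase gene Sphk1 0.35.

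In the VEGF axis, 4 of 10 genes lay above 0 and 6 below, and 0 passed the test. Vegfa, the main growth factor of blood vessels, was at 536, 445 and 488 CPM in control 1 to 3 and at 255, 231 and 492 CPM in shDdr2 1 to 3 (log2 fold change -0.59, edgeR unadjusted p = 0.112). Thus 2 of the 3 shDdr2 tumours were below every control and the third was within their range. Vegfd was at 5.99, 11.9 and 13.8 CPM in the controls and at 16.1, 17.6 and 14.4 CPM in the shDdr2 tumours, without overlap (0.60, edgeR unadjusted p = 0.124). The groups were free of overlap in 4.32% of all genes. Pgf, placental growth factor, had -0.94. The VEGF receptor genes Flt1 and Kdr followed the order of the members, from 13.5 and 8.16 CPM in shDdr2 1 to 44.1 and 42.0 CPM in shDdr2 3.

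Of 27 further endothelial genes, 17 lay above 0 and 10 below (median 0.09), and 1 had an unadjusted p under 0.05. Over all genes 57.1% lay above 0 and 1.44% had such a p. This was Cd36, the fatty acid transporter of capillaries, at 4.42, 9.62 and 5.34 CPM in the controls and at 20.7, 14.7 and 11.8 CPM in the shDdr2 tumours (log2 fold change 1.28, unadjusted p = 0.0123, edgeR adjusted p = 1.00). The groups did not overlap, as in 4.32% of all genes. Cd36 is also a gene of muscle and fat, and 5 of 5 skeletal muscle markers were higher without overlap in these tumours, with sums of 7.82, 42.0 and 64.7 CPM in the controls and 663, 2195 and 298.7 CPM in the shDdr2 tumours. Cd36 did not follow their order, being highest in shDdr2 1 where the muscle sum was highest in shDdr2 2, and the part of muscle in it was not tested. Ednrb and Tspan18 had 0.54 and 0.83 at unadjusted p of 0.237 and 0.307. The leukocyte adhesion genes of activated endothelium (Selp, Ackr1, Icam1 and Vcam1) gave 2 above 0 and 2 below, with Ackr1 at 0.72, Selp at 1.09 and Icam1 at -0.17 (edgeR unadjusted p = 0.156, 0.186 and 0.440). Sele, of the same list, did not pass the filter on low counts and was not tested. It had 3, 4 and 1 counts in the controls and 6, 10 and 13 in the shDdr2 tumours, which did not overlap.

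By median deviation, the pericyte, fibroblast and macrophage marker lists shared their lowest and highest library with the endothelial genes. The macrophage list also ranked the libraries between in the endothelial order. In the pericyte and fibroblast lists control 1 was likewise second lowest, and the order of the middle libraries differed. The median deviation from each gene's mean over libraries was, for endothelial genes, -0.31, 0.20 and 0.11 log2 units in control 1 to 3 and -0.95, 0.03 and 0.91 in shDdr2 1 to 3. For 8 pericyte markers it was -0.32, 0.19 and 0.44, then -0.93, 0.01 and 0.94. For 6 fibroblast markers it was -0.43, 0.07 and 0.42, then -1.15, 0.08 and 1.40. For 7 macrophage markers it was -0.70, 0.68 and 0.30, then -0.85, 0.24 and 0.76. Summed over the list, the endothelial genes were at 503.7 to 791.4 CPM in the controls and 384.9 to 1234 CPM in the shDdr2 tumours. The pericyte sums were 355.2, 421.6 and 452.7 CPM in control 1 to 3 and 377.9, 314.1 and 462.4 CPM in shDdr2 1 to 3, so by sum shDdr2 2 was lowest. Of the pericyte sum in shDdr2 1, 301.4 CPM were Ndufa4l2. In control and shDdr2 tumours the fibroblast sums were 1467 to 3318 and 633 to 6563 CPM, and the macrophage sums were 163.6 to 402.5 and 124.3 to 426.7 CPM. By median deviation, all 4 of these lists were lowest in shDdr2 1 and highest in shDdr2 3. Of the 7 macrophage markers, only Adgre1, Csf1r and Stab1 had both extremes there. Mrc1 and Folr2 were lowest in control 1 and highest in control 2, Cd163 was highest in control 3, and Cd68 was lowest in control 1. For 5 epithelial markers (Krt5, Krt14, Epcam, Cdh1 and Trp63) the medians lay between -0.11 and 0.13 in all 6 libraries. Other lists did not share both extremes. The T cell median was lowest in control 1 (-1.42) and highest in control 2 (1.77). The platelet median was lowest in shDdr2 2 (-0.71), at 0.06 in shDdr2 1 and highest in shDdr2 3 (0.61). The erythroid median was highest in control 1 (3.14) and the skeletal muscle median in shDdr2 2 (4.38). The part of a differing stromal share of the tumour RNA in the endothelial values was not tested.

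**Figure D5:**
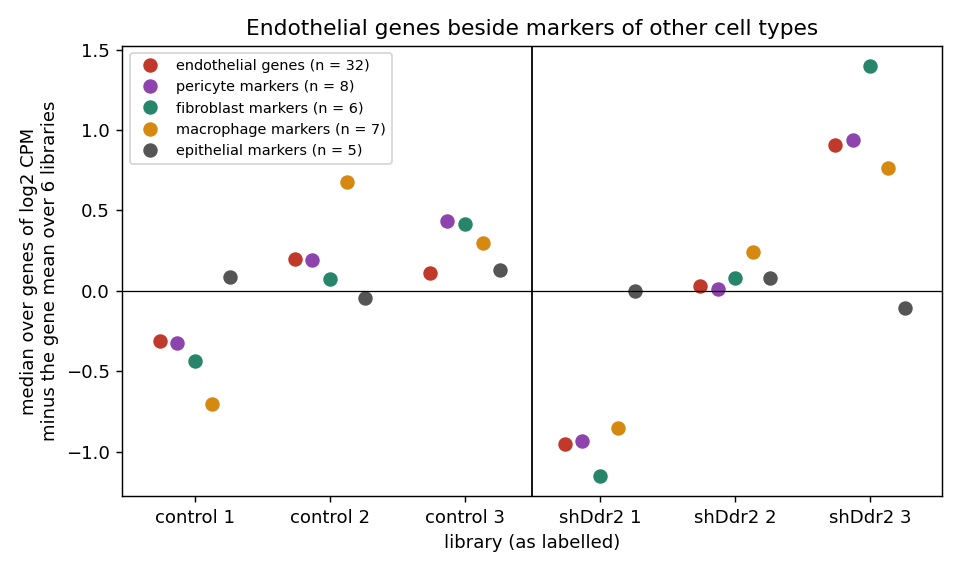
Median deviation of 5 marker lists (y axis, log2 CPM minus each gene's mean over 6 libraries) by library (x axis), with 1 point per list and library. The endothelial, pericyte, fibroblast and macrophage points are below -0.80 in shDdr2 1 and above 0.70 in shDdr2 3, while the epithelial points stay near 0.

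Of the 8 pericyte markers, Pdgfrb, Rgs5, Abcc9 and Cspg4 were lowest in shDdr2 1 and highest in shDdr2 3, and the other 4 were not. Ndufa4l2 was highest in shDdr2 1, Kcnj8 and Notch3 in control 3, and Higd1b in control 2. Pdgfrb, the PDGF receptor of pericytes, went from 10.5 CPM in shDdr2 1 to 89.2 CPM in shDdr2 3, with controls at 26.2, 40.6 and 51.8 CPM. Rgs5 was at 14.3, 16.7 and 14.6 CPM in the controls and at 11.8, 20.4 and 38.1 CPM in the shDdr2 tumours. Of the whole list 5 had a log2 fold change above 0, the median was 0.04, and 0 passed the edgeR test (lowest unadjusted p 0.174). In 0 of the 8 were the groups free of overlap, against 4.32% of all genes.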

How the data were processed

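Bulk RNA sequencing of 6 tumours (3 control, 3 labelled shDdr2) was used. Per the labels' protocols, poly-A RNA was sequenced as paired-end reads of 150 bp. Bowtie2 2.1.0, RSEM 1.2.31, limma and the build GRCm38.p5 appear, without roles, in the submitters' processing notes. The authors deposited counts by Entrez number. All are whole, possibly after rounding of estimates, and the lowest is 1. The deposited log2 values follow from these counts by a factor per library. No annotation, gene filter or strand setting is named there.

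Symbols came from RefSeq (14876 of 15295 numbers matched), coordinates and merged exon lengths from GENCODE M21 (GRCm38). The counts were filtered with filterByExpr (14498 genes), scaled by TMM and tested with edgeR 4.0.16 (quasi-likelihood, robust, R 4.3.3), two-sided, with Benjamini-Hochberg adjustment over all genes and a threshold of 0.05. Library totals of 15560571 to 19522985 counts and a common biological coefficient of variation of 35.3% set the precision. DESeq2 1.42.0, limma 3.58.1, other scalings and filters, and leaving out libraries were alternatives.

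Members were given by name; members and lists were chosen with earlier results of these data known. The rule named every member by role, with values per library for 10 of them, for the 3 with the smallest unadjusted p in each direction, and for the 2 highest and 2 lowest per length; of other lists, up to 3 genes with the smallest p. Some further values were named after being seen. Same-numbered libraries deviated together over all genes (r of 0.299, 0.267 and 0.253 for numbers 1, 2 and 3, all above 0.1). Control 3 with shDdr2 2, which differ in number, gave 0.254. The numbers come from the sample titles. The fit as reported was unpaired, with group only, and a fit with the number as a block was an alternative. Within groups no libraries agreed within counting noise (chi-square per degree of freedom of 24.8 or more).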

Additional observations from a re-analysis of the deposited data

How the results depend on the processing

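The count of endothelial genes called was 0 in the analysis as reported and in every alternative run: with the replicate block, RLE size factors, library totals, no or a stricter filter on low counts, DESeq2, limma with voom weights, limma on the deposited log2 values, and each library, or both number 1 libraries, left out. Over all genes DESeq2 called 40, and each edgeR or limma fit called 0 (edgeR as reported had 209 at an unadjusted p under 0.05). The median log2 fold change of the members was 0.16 as reported and between 0.15 and 0.16 under the other scalings, filters and DESeq2. It was -0.04 with the replicate block, -0.00 with voom and -0.05 on the deposited log2 values, with 15, 16 and 15 of 32 members above 0. Leaving out 1 library moved it between -0.47 and 0.45, and the blood vessel members between -0.46 and 0.45. Without both number 1 libraries it was 0.31. Thus its direction is not settled. The block changed no call. The lowest single counts were those of Sox17 and Lyve1, at 10 and 14 in shDdr2 1, while Tal1 was low throughout, at 22 to 63 counts.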
